A study of Mus musculus with 18 samples.

Results

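The 10 genes described here belong to the redox response controlled by Nrf2 in mouse T cells: the factor itself (Nfe2l2), its inhibitor (Keap1) and the target genes Osgin1, Hmox1, Nqo1, Gclm, Gclc, Txnrd1, Srxn1 and Slc7a11. They were taken by symbol from count files of 43280 genes, and all 10 were in the files. The set was chosen by the measured CPM of the groups, above all the high Osgin1 of iRTE against Artificial CD8 cells, so the Osgin1 values of all groups are given as a description, with no test. The comparison of iRTE with Artificial CD8 cells, in which that rise was seen, is given by its values and by counts beside those of all genes, and nothing is read from those counts.

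The 18 RNA sequencing libraries came from sorted mouse cells in 4 groups. iRTE (n = 5), Artificial CD8 (n = 5) and CD4+CD8+ cells (n = 3) were grown from induced pluripotent stem cells labelled Pmel iPSC, and no treatment is labelled. Naive CD8+ cells (splenic CD8, n = 5) came directly from the spleen of transgenic mice, which the sample descriptions call pmel and whose age is not given in the labels. CD4+CD8+ and Artificial CD8 cells were made on OP9-DL1, bone marrow stroma that displays a Notch ligand. The design text also names CD8+ cells from 3D thymic culture, and by elimination these are the iRTE cells, although the growth label of every sample, the splenic ones included, names OP9-DL1. The descriptions of iRTE 1 to 3 and of iRTE 4 and 5 follow different naming styles, and both sets are given below where they differ. Whether replicates were separate cultures or animals is not in the labels, so each p-value reflects the spread between these libraries, which may be technical.

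Nrf2 is a transcription factor that the adaptor Keap1 normally hands to a ubiquitin ligase for destruction. Oxidants and electrophiles modify Keap1, and Nrf2 then accumulates, pairs with small Maf proteins and binds antioxidant response elements near genes for glutathione synthesis, thioredoxin reduction, quinone and haem breakdown. Because this control acts mainly on the protein, the mRNA of Nfe2l2 does not report Nrf2 activity. In T cells glutathione buffers the oxidants made during activation and growth, and naive T cells are known for little uptake of cystine, its precursor.

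Total counts per library ran from 11691286 to 16533373 in iRTE, from 15953388 to 19305751 in Artificial CD8, from 11747367 to 12208210 in CD4+CD8+ and from 11132768 to 17671852 in splenic CD8 cells. Levels are CPM, counts scaled to a common library size with TMM factors, and 3 counts, the floor used per library, equalled 0.152 to 0.287 CPM. Such floors and counting intervals cover counting error only. Cd8a averaged 1159, 585, 873 and 1156 CPM in iRTE, Artificial CD8, CD4+CD8+ and splenic CD8 cells, while Cd4 averaged 0, 4.41, 224 and 0.0324 CPM in the same order. In iRTE 4 Cd8a was 456 CPM, against 1262 to 1385 CPM in the other iRTE libraries, and results that rest on this library are given without it. Cd8b1, the other CD8 chain, went the opposite way: it ran from 1984 to 3304 CPM in iRTE libraries and was highest in iRTE 4. Summed over 7 T cell markers, iRTE 4 held 8220 CPM, within the iRTE range of 7810 to 9620 CPM. Summed over 7 erythroid markers, splenic libraries held 170 to 219 CPM, against 0.173 to 2.68 CPM in all cultured libraries. Of the stromal markers, Dcn and Lum had no count in any library, but Col1a2, a fibroblast collagen, had 0, 10.6 and 12.3 CPM in CD4+CD8+ 1 to 3, 0 to 3.15 CPM in Artificial CD8 and at most 0.0623 CPM in iRTE cells, with no count in splenic CD8 cells. Pdgfrb, a pericyte and fibroblast receptor of the same list, was instead highest in Artificial CD8 cells, at 14.4 to 23.4 CPM, with 1.38 to 11.3 CPM in CD4+CD8+, 0.973 to 3.74 CPM in iRTE and 1.97 to 3.46 CPM in splenic CD8 cells. The 7-gene stromal sum of 160 to 341, 151 to 182, 163 to 223 and 42.5 to 49.4 CPM in iRTE, Artificial CD8, CD4+CD8+ and splenic CD8 cells was mostly Thy1, which T cells express. In these bulk samples fewer expressing cells and less RNA per cell cannot be told apart.

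The members did not move as one block. Against splenic CD8 cells, Gclm, Txnrd1 and Hmox1 were higher in all 3 cultured groups, Gclc was lower in all 3, and Nfe2l2 was not called in any. Nqo1 and Slc7a11 were highest in CD4+CD8+ cells, and Osgin1 in iRTE cells. Srxn1 was too low for a test. Fold changes are log2 values from edgeR's quasi-likelihood fit, the first group relative to the second, and ± is the standard error of log2 CPM. Calls have a Benjamini-Hochberg adjusted p under 0.05 over 13922 genes.

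**Figure D1:**
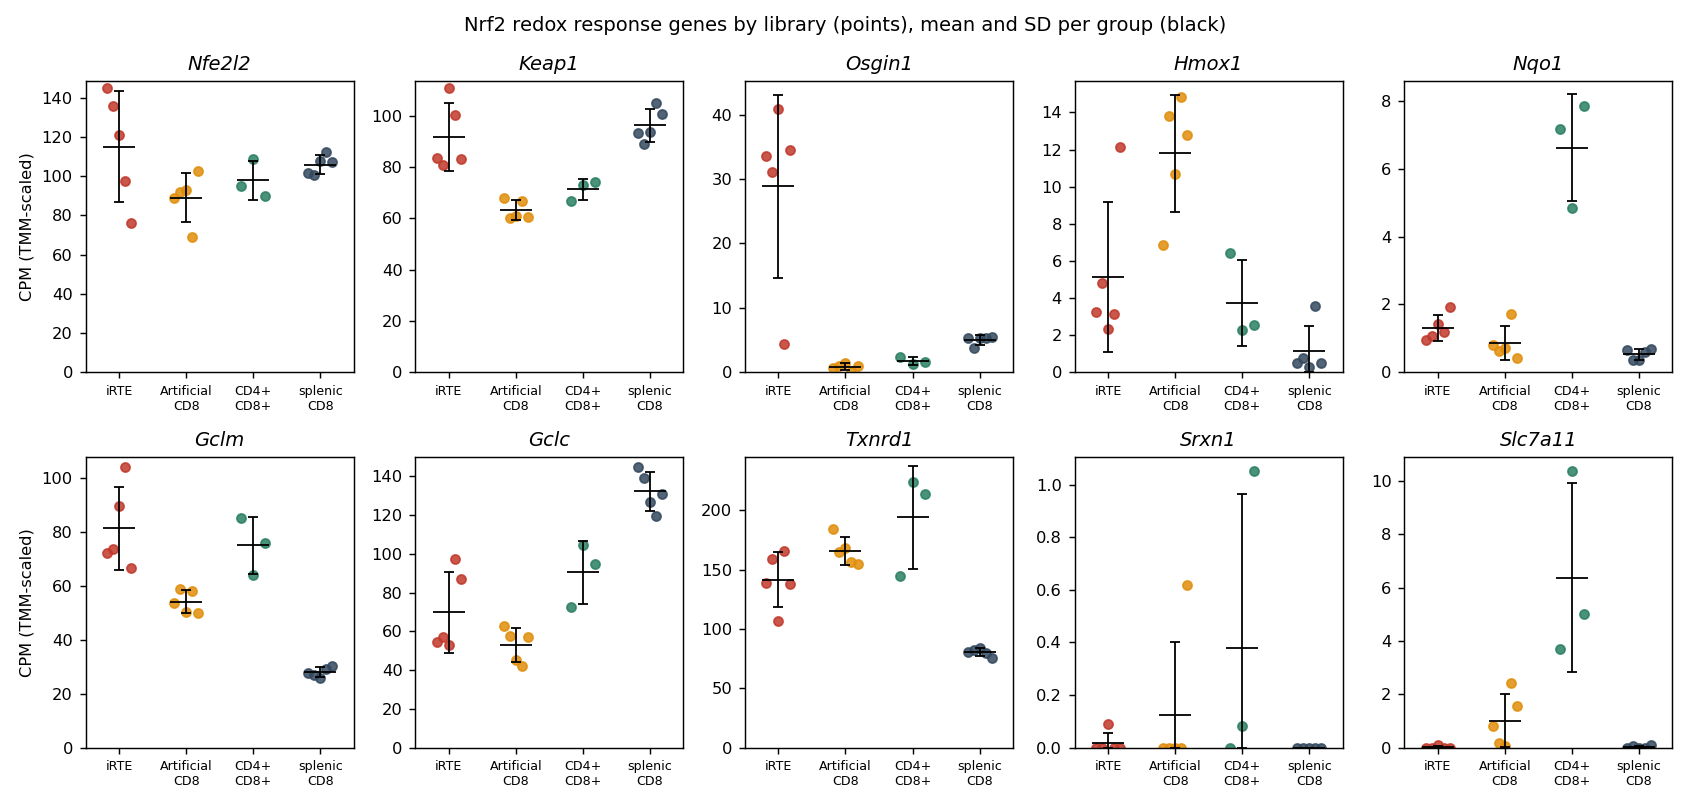
Each panel plots 1 gene in TMM-scaled CPM on a linear axis from 0, with 1 point per library for iRTE (n = 5), Artificial CD8 (n = 5), CD4+CD8+ (n = 3) and splenic CD8 (n = 5). Black marks are means and bars are SD, stopped at 0. Osgin1 stands at 31.1 to 41.0 CPM in 4 iRTE libraries and at 4.30 CPM in iRTE 4, and Nqo1 and Slc7a11 are highest in CD4+CD8+ cells.

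Nfe2l2, the gene of Nrf2, had 145, 136, 121, 97.7 and 76.1 CPM in iRTE 1 to 5 and 100 to 113 CPM in splenic CD8 cells. Artificial CD8 libraries held 68.9 to 103 CPM and CD4+CD8+ libraries 89.7 to 109 CPM, so all 4 groups overlapped. The iRTE libraries spread most, and iRTE 1 to 3 lay above iRTE 4 and 5. The change was 0.12 ± 0.17 in iRTE (edgeR adjusted p = 0.496), -0.25 ± 0.10 in Artificial CD8 (edgeR adjusted p = 0.142) and -0.11 ± 0.09 in CD4+CD8+ (edgeR adjusted p = 0.573), each against splenic CD8 cells. With iRTE 1 to 3 alone Nfe2l2 was higher than in splenic CD8 cells by 0.34 (edgeR adjusted p = 0.0116), and with iRTE 4 and 5 alone the sign turned to -0.28 (edgeR adjusted p = 0.135). The same split held against CD4+CD8+ cells, at 0.45 with iRTE 1 to 3 (edgeR adjusted p = 0.00829) and -0.17 with iRTE 4 and 5 (edgeR adjusted p = 0.478), where all 5 gave 0.23 ± 0.19. Against Artificial CD8 cells the iRTE value was 0.37 ± 0.20.

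Keap1, the inhibitor that targets Nrf2 for destruction, averaged 91.8 ± 13.2 CPM in iRTE, 63.3 ± 3.81 CPM in Artificial CD8, 71.3 ± 3.93 CPM in CD4+CD8+ and 96.3 ± 6.42 CPM in splenic CD8 cells (SD). Every Artificial CD8 library (60.2 to 68.1 CPM) and every CD4+CD8+ library (66.8 to 74.1 CPM) lay below every splenic one (89.0 to 105 CPM). Keap1 fell by 0.60 ± 0.06 on the log2 scale in Artificial CD8 (edgeR adjusted p = 3.32e-05) and by 0.43 ± 0.06 in CD4+CD8+ (edgeR adjusted p = 0.00371), against splenic CD8 cells. In iRTE it changed by -0.07 ± 0.10 (edgeR adjusted p = 0.572). Against CD4+CD8+ cells, iRTE cells were higher by 0.37 ± 0.10 (edgeR adjusted p = 0.0255), a call lost without any single CD4+CD8+ library (0.32 to 0.40) and without iRTE 3 (0.29), with no filter on low counts (0.35) and in a fit of these groups alone (0.37). Each iRTE library (81.0 to 111 CPM) lay above every Artificial CD8 library, with a fitted difference of 0.54 ± 0.10.

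Slc7a11, the cystine importer of the cystine-glutamate exchanger, was highest in the CD4+CD8+ libraries. It had 3.72, 10.4 and 5.02 CPM in CD4+CD8+ libraries 1 to 3, from 43, 124 and 62 counts. Artificial CD8 libraries 1 to 5 held 0.796, 0.185, 0.0592, 2.44 and 1.55 CPM, all below every CD4+CD8+ library. The iRTE libraries held 1 count in all, in iRTE 3, and the splenic libraries 2, in splenic CD8 2 and 5, all at or under the floor. Summed counts gave CD4+CD8+ cells a rate 240 times that of splenic CD8 cells (95% exact interval 65.8 to 2000) and gave iRTE cells 0.00242 times that of CD4+CD8+ cells (6.1e-05 to 0.0136). Artificial CD8 cells stood at 40.4 times the splenic rate (10.9 to 338), although the libraries of these groups overlapped. Artificial CD8 2 and 3 held 3 and 1 counts, at or under the floor, while Artificial CD8 4 and 5 held 48 and 30. Slc7a11 was called higher in CD4+CD8+ and Artificial CD8 than in splenic CD8 cells, and lower in iRTE than in CD4+CD8+ cells. Slc7a11 passed the filter on low counts only through CD4+CD8+ and Artificial CD8 libraries, where it was high. These calls therefore restate the counts above and are given with no p-value. In Artificial CD8 cells it fell by 2.64 ± 0.82 on the log2 scale against CD4+CD8+ cells (edgeR adjusted p = 0.0273), a call lost without CD4+CD8+ 2 (-2.10) or 3 (-2.79) or without Artificial CD8 1 (-2.57) or 2 (-2.38). Without Artificial CD8 4, the Artificial CD8 library with most counts, the change was 4.20 against splenic CD8 and -3.27 against CD4+CD8+ cells. In CD4+CD8+ 1, the library of that group with no collagen count, Slc7a11 was still above every Artificial CD8 library. CD4+CD8+ 2, with 10.6 CPM of Col1a2, held the most Slc7a11. CD4+CD8+ 3 had more Col1a2, at 12.3 CPM, but less Slc7a11, at 5.02 CPM. The part of stromal RNA in the Slc7a11 values was not tested. Set against Artificial CD8, iRTE cells stood at 0.0144 times the rate (0.000361 to 0.0822).

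Slc7a11 is a target of ATF4, the factor of the amino acid response, as well as of Nrf2. Promoter windows of the 250 bases before the gene start were read from RefSeq, build GRCm38.p6, for the 8 members with an entry (10 windows, 3 of them for Txnrd1). They were searched on both strands for the antioxidant response element core TGACNNNGC, the ATF4 composite element TGATGNAA and the AP-1 element TGANTCA, which is broader than the classical site. Some sequences match both the first and the last. Slc7a11 is shown because its window, chr3:50443614-50443863 on the minus strand, held 2 matches to TGATGNAA and none to TGACNNNGC, and capitals mark the matches.
Slc7a11: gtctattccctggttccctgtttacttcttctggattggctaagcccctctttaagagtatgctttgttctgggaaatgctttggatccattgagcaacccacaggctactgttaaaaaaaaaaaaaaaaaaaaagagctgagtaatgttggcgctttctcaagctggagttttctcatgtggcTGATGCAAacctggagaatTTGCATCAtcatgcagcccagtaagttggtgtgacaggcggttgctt
TGATGNAA occurred in 3.45% of 32851 promoter windows of the same length. A match describes the letters and does not show binding.

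Gclm and Gclc encode the subunits of glutamate-cysteine ligase, which makes the first bond of glutathione. Gclc carries the catalytic site, and Gclm modifies its activity. Gclm had 72.2, 73.7, 89.6, 104 and 66.6 CPM in iRTE 1 to 5, 53.7, 58.7, 50.1, 58.1 and 49.8 CPM in Artificial CD8 1 to 5, 84.9, 64.1 and 75.7 CPM in CD4+CD8+ 1 to 3, and 27.7, 27.0, 25.9, 29.1 and 30.3 CPM in splenic CD8 1 to 5. Every cultured library therefore lay above every splenic library. Against splenic CD8 cells Gclm rose by 1.54 ± 0.12 in iRTE (edgeR adjusted p = 8.75e-09), by 0.95 ± 0.06 in Artificial CD8 (edgeR adjusted p = 2.07e-06) and by 1.42 ± 0.12 in CD4+CD8+ (edgeR adjusted p = 9.21e-08). Against CD4+CD8+ cells it fell by 0.47 ± 0.13 on the log2 scale in Artificial CD8 cells (edgeR adjusted p = 0.0278), a call lost without CD4+CD8+ 1 (-0.37) or 3 (-0.46), without Artificial CD8 1 (-0.47), 3 (-0.44) or 5 (-0.44), or with no filter on low counts (-0.45). Between iRTE and CD4+CD8+ cells the difference was 0.12 ± 0.17 (edgeR adjusted p = 0.596). All iRTE libraries lay above all Artificial CD8 libraries (0.59 ± 0.13).

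Gclc went the other way. It had 54.4, 57.1, 53.0, 97.4 and 86.9 CPM in iRTE 1 to 5, 62.6, 57.7, 45.0, 42.4 and 57.1 CPM in Artificial CD8 1 to 5, 72.6, 104 and 94.5 CPM in CD4+CD8+ 1 to 3, and 145, 139, 127, 119 and 131 CPM in splenic CD8 1 to 5. All cultured libraries lay below all splenic ones. Gclc fell by 0.92 ± 0.19 on the log2 scale in iRTE (edgeR adjusted p = 0.000146), by 1.32 ± 0.12 in Artificial CD8 (edgeR adjusted p = 2.24e-06) and by 0.55 ± 0.16 in CD4+CD8+ (edgeR adjusted p = 0.0253), each against splenic CD8 cells. The CD4+CD8+ call was lost without CD4+CD8+ 1 (-0.41) or 3 (-0.57), and without splenic CD8 1 (-0.49) or 2 (-0.51). Artificial CD8 cells were also lower than CD4+CD8+ cells, with a change of -0.77 ± 0.19 (edgeR adjusted p = 0.0108), which was lost without CD4+CD8+ 2 (-0.66). Within iRTE, libraries 1 to 3 averaged 54.8 CPM and libraries 4 and 5 92.1 CPM. Against CD4+CD8+ cells, all 5 gave -0.37 ± 0.24 (edgeR adjusted p = 0.178), iRTE 1 to 3 gave -0.72 (edgeR adjusted p = 0.000943) and iRTE 4 and 5 gave 0.03 (edgeR adjusted p = 0.938). Leaving out iRTE 4 alone gave -0.52 (edgeR adjusted p = 0.0309). Against Artificial CD8 cells the iRTE value was 0.40 ± 0.22, with overlap of the groups.

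The ratio of Gclm to Gclc counts within a library does not depend on library scaling. It is not corrected for transcript length, so it is compared between libraries only. The measure was chosen after the values of both genes were seen. The ratio was 1.33, 1.29, 1.69, 1.07 and 0.767 in iRTE 1 to 5, 0.859, 1.02, 1.11, 1.37 and 0.873 in Artificial CD8 1 to 5, 1.17, 0.614 and 0.801 in CD4+CD8+ 1 to 3, and 0.191, 0.194, 0.205, 0.244 and 0.232 in splenic CD8 1 to 5. The lowest cultured library, CD4+CD8+ 2, was above the highest splenic library. On the log2 scale the ratio was higher than in splenic CD8 cells by 2.49 ± 0.20 in iRTE, by 2.28 ± 0.14 in Artificial CD8 and by 1.97 ± 0.28 in CD4+CD8+ cells. Since the genes moved in opposite directions in these groups, this separation follows from the values above. A permutation test of the ratio was run, but no p-value is read from it, because the measure was chosen after seeing the values. Against CD4+CD8+ cells the difference was 0.51 ± 0.33 in iRTE and 0.31 ± 0.30 in Artificial CD8 cells, with overlap of the groups.

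**Figure D2:**
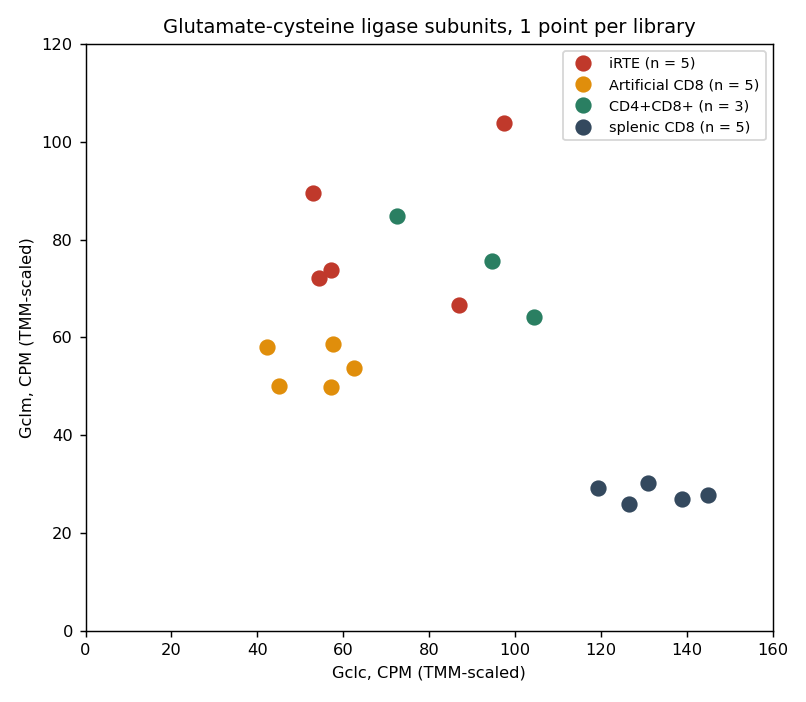
Gclm is plotted against Gclc in TMM-scaled CPM, both axes linear from 0, with 1 point per library coloured by group. The 5 splenic CD8 libraries lie at 119 to 145 CPM of Gclc and 25.9 to 30.3 CPM of Gclm, and all cultured libraries lie to the left and above.

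Txnrd1, the cytosolic thioredoxin reductase that keeps thioredoxin reduced with NADPH, had 139, 159, 107, 166 and 138 CPM in iRTE 1 to 5 and 155 to 184 CPM in Artificial CD8 cells. CD4+CD8+ 1 to 3 held 145, 224 and 214 CPM, and splenic CD8 cells 75.7 to 84.2 CPM. Every cultured library lay above every splenic library. Txnrd1 rose by 0.81 ± 0.11 in iRTE (edgeR adjusted p = 1.85e-05), by 1.04 ± 0.05 in Artificial CD8 (edgeR adjusted p = 7.54e-07) and by 1.27 ± 0.20 in CD4+CD8+ (edgeR adjusted p = 4.3e-07), each against splenic CD8 cells. In iRTE it was lower than in CD4+CD8+ cells, with a change of -0.45 ± 0.23 (edgeR adjusted p = 0.023), a call lost without CD4+CD8+ 2 (-0.34) or 3 (-0.38), in iRTE 4 and 5 alone (-0.35) and in a fit of these groups alone (-0.45). CD4+CD8+ 2 and 3 are the libraries with collagen counts, whose part was not tested; in CD4+CD8+ 1, with none, Txnrd1 lay within the iRTE range and above all splenic libraries. Artificial CD8 and CD4+CD8+ cells differed by -0.23 ± 0.20 (edgeR adjusted p = 0.304), and iRTE and Artificial CD8 cells by -0.23 ± 0.12.

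Across the 18 libraries Gclm and Txnrd1 had the highest Pearson correlation of any pair among the 9 members tested, 0.75 in log2 CPM, and Hmox1 and Gclc the lowest, -0.79. These libraries share groups, so the values describe the groups more than single libraries. The promoter windows of Gclm, chr3:122245307-122245556, and of the Txnrd1 start at chr10:82858956-82859205, both on the plus strand, are shown because both genes were higher in every cultured library and each window held 1 match to TGACNNNGC, on the opposite strand and in capitals.
Gclm: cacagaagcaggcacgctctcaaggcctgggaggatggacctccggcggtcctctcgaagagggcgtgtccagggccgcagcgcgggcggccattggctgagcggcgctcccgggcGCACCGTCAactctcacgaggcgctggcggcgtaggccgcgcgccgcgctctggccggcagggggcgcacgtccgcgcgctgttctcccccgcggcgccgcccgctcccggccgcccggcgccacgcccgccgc
Txnrd1: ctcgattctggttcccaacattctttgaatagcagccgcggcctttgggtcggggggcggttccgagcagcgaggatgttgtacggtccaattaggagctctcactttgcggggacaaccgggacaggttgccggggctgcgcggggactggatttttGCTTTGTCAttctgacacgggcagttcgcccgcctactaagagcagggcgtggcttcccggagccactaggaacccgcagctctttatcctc
Nfe2l2 also held 1 match, so 3 of the 10 windows of the 8 members with an entry had one, where 10.2% of the 32851 windows did. The windows of Keap1, Osgin1, Nqo1, Srxn1 and Slc7a11 and the other Txnrd1 windows held none. Gclc was not searched. The search covers these letters in these windows only.

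Srxn1, sulfiredoxin, which repairs overoxidised peroxiredoxins, did not pass the filter on low counts. It had 12 counts in Artificial CD8 5 (0.619 CPM), 13 in CD4+CD8+ 3 (1.05 CPM), 1 in iRTE 3 and 1 in CD4+CD8+ 2, and none in the other 14 libraries. Nearly all counts of Artificial CD8 and of CD4+CD8+ cells thus came from 1 library each. The same libraries held the most Col3a1, another fibroblast collagen, at 2.84 CPM in Artificial CD8 5 and 6.96 CPM in CD4+CD8+ 3. Artificial CD8 5 also had the most Col1a1 and Col1a2 of its group, at 0.928 and 3.15 CPM. In CD4+CD8+ cells Col1a2 was highest in library 3, but Col1a1 in library 2, at 7.37 against 6.80 CPM in library 3. CD4+CD8+ 2, with 10.6 CPM of Col1a2, held only 1 Srxn1 count. The part of stromal RNA in the Srxn1 counts was not tested.

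Nqo1 encodes a quinone reductase that is widely used as a readout of Nrf2. CD4+CD8+ 1 to 3 held 7.18, 4.86 and 7.86 CPM, from 58 to 97 counts, above every library of the other groups, CD4+CD8+ 1 with no collagen count included. The range was 0.958 to 1.92 CPM in iRTE, 0.413 to 1.73 CPM in Artificial CD8 and 0.351 to 0.679 CPM in splenic CD8 cells. Nqo1 was 3.63 ± 0.27 higher in CD4+CD8+ than in splenic CD8 cells (edgeR adjusted p = 2.01e-06). It fell by 2.33 ± 0.26 on the log2 scale in iRTE (edgeR adjusted p = 0.000586) and by 2.94 ± 0.36 in Artificial CD8 cells, each against CD4+CD8+ cells (edgeR adjusted p = 0.000224). At 10 to 30 counts per library, iRTE cells were above splenic CD8 cells by 1.30 ± 0.23 (edgeR adjusted p = 0.0109), with every iRTE library above every splenic one. Artificial CD8 cells, at 8 to 34 counts, differed from splenic CD8 cells by 0.69 ± 0.34 (edgeR adjusted p = 0.154). The iRTE value against Artificial CD8 cells was 0.61 ± 0.33.

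Hmox1, haem oxygenase, which breaks down haem to biliverdin, iron and carbon monoxide, was highest in Artificial CD8 cells. These held 6.86, 13.8, 10.7, 14.8 and 12.8 CPM in libraries 1 to 5, iRTE 1 to 5 held 3.26, 4.80, 2.30, 3.12 and 12.2 CPM, and CD4+CD8+ 1 to 3 held 6.40, 2.26 and 2.51 CPM. Splenic CD8 1 to 5 held 0.486, 0.779, 0.281, 3.56 and 0.510 CPM, from only 9, 11, 4, 59 and 6 counts. Within 2 groups a single library, iRTE 5 and splenic CD8 4, stood above the rest. Hmox1 rose against splenic CD8 cells by 2.17 ± 0.68 in iRTE (edgeR adjusted p = 0.00488), by 3.36 ± 0.58 in Artificial CD8 (edgeR adjusted p = 0.000124) and by 1.70 ± 0.71 in CD4+CD8+ (edgeR adjusted p = 0.0374). Without splenic CD8 4 these were 3.33, 4.53 and 2.86, and the iRTE value without iRTE 5 was 1.55. The CD4+CD8+ call was lost without CD4+CD8+ 1 (1.06) or without splenic CD8 1 (1.52), 2 (1.61), 3 (1.48) or 5 (1.55).

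Hmox1 is abundant in macrophages. Summed over the 8 myeloid markers in the files, of 9 listed, iRTE 5 held 20.9 CPM and splenic CD8 4 held 19.4 CPM, the highest values of their groups (2.48 to 9.68 CPM in the other iRTE and 9.41 to 14.3 CPM in the other splenic libraries). Most of the sum in iRTE 5 was 1 gene, the Fc receptor Fcgr3, at 16.6 CPM against 2.04 to 3.37 CPM in the other iRTE libraries. In splenic CD8 4 the lysozyme gene Lyz2 held 9.83 CPM, against 1.42 to 5.86 CPM in the other splenic libraries. Itgam and Cd68 were also highest in splenic CD8 4, at 3.20 and 4.22 CPM. The other markers with splenic counts peaked elsewhere. Csf1r was highest in splenic CD8 3 (2.11 CPM), Mpeg1 and Fcgr3 in splenic CD8 2 (1.70 and 1.06 CPM) and Emr1 in splenic CD8 5 (0.425 CPM). Artificial CD8 libraries, with the most Hmox1, held 2.37 to 9.53 CPM and CD4+CD8+ libraries 2.16 to 6.95 CPM. Emr1, the macrophage marker F4/80, had no count in any cultured group, Cd14 had none in iRTE, CD4+CD8+ or splenic CD8 cells, Mpeg1 none in Artificial CD8 and Lyz2 none in CD4+CD8+ cells. The part of myeloid RNA in the Hmox1 values was not tested. Between Artificial CD8 and CD4+CD8+ cells Hmox1 differed by 1.66 ± 0.50 with no overlap of the groups (edgeR adjusted p = 0.115), and between iRTE and CD4+CD8+ cells by 0.47 ± 0.61 (edgeR adjusted p = 0.659), a sign that turned without iRTE 5 (-0.14). Against Artificial CD8 cells the iRTE value was -1.19 ± 0.45.

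Osgin1, an oxidative stress induced growth inhibitor, had 33.5, 31.1, 41.0, 4.30 and 34.6 CPM in iRTE 1 to 5. Artificial CD8 1 to 5 held 0.613, 0.987, 1.48, 0 and 0.877 CPM, from 0 to 25 counts, CD4+CD8+ 1 to 3 held 2.34, 1.17 and 1.54 CPM, and splenic CD8 1 to 5 held 5.29, 3.68, 5.34, 5.25 and 5.52 CPM. In 4 of 5 iRTE libraries the level was above every other library, and iRTE 4 lay within the splenic range while above all Artificial CD8 and CD4+CD8+ libraries. The order of group means was iRTE, splenic CD8, CD4+CD8+ and Artificial CD8, and the last 2 groups overlapped. Fitted differences, given as description, were 5.19 ± 0.87 for iRTE against Artificial CD8, 4.10 ± 0.66 for iRTE against CD4+CD8+ and 2.52 ± 0.61 for iRTE against splenic CD8 cells. Without iRTE 4, the library with low Cd8a, they were 5.47, 4.38 and 2.80. For CD4+CD8+ against splenic CD8 cells the value was -1.57 ± 0.29, with every CD4+CD8+ library below every splenic one, and for Artificial CD8 against splenic CD8 cells it was -2.67 ± 0.63.

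The promoter window of Osgin1, chr8:119436897-119437146 on the plus strand, is shown because Osgin1 was above every other library in 4 of 5 iRTE libraries. It held 1 match to TGANTCA, in capitals, which 6.75% of windows held. The match was not particular to Osgin1: 2 of the 8 members searched had one, and the window of Srxn1 held 2.
Osgin1: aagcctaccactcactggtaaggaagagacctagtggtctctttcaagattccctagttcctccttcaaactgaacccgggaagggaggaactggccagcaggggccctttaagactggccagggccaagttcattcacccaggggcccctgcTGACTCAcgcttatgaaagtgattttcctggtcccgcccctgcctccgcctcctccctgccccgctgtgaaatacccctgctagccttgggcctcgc
Among the 13922 genes, those with the pattern most like Osgin1 over the 18 libraries were Tmem173, a sensor adaptor of cytosolic DNA signalling now called STING (r = 0.93), Isg20, an interferon-induced exonuclease (0.93), Gpr171 (0.92), the lectin receptor subunit Klrd1 (0.92) and the myosin Myo1g (0.92), by Pearson's r in log2 CPM. Isg20 averaged 57.0 ± 23.7 CPM in iRTE, 13.3 ± 3.52 CPM in Artificial CD8, 19.8 ± 5.14 CPM in CD4+CD8+ and 39.4 ± 3.36 CPM in splenic CD8 cells (SD). Of the members, Keap1 (0.64) and Nfe2l2 (0.64) had the highest correlation with Osgin1 and Slc7a11 the lowest (-0.64).

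Leaving out Osgin1, 8 members could be tested, without Srxn1. Slc7a11 is among the 8, though it passed the filter only through CD4+CD8+ and Artificial CD8 libraries. It is one of the called members in every comparison with either of these groups. Against splenic CD8 cells iRTE cells were higher at 4, where 29.2% of all 13922 genes were, and lower at 1, where 29% were. Artificial CD8 cells were higher at 4 (30.3% of all genes) and lower at 2 (30.2%), and CD4+CD8+ cells higher at 5 (28.9%) and lower at 2 (27.4%). The median log2 change of the 8 was 0.47, 0.82 and 1.34 in these comparisons, where that of all genes was -0.05, -0.03 and -0.03. Every library lay above every splenic library for 3 members in iRTE (18.6% of all genes), 3 in Artificial CD8 (29.9%) and 4 in CD4+CD8+ cells (30.7%), and below for 1 (22.6%), 2 (31.1%) and 2 (32.7%). These comparisons share the splenic libraries. Against CD4+CD8+ cells, iRTE cells were higher at 1 (11.8%) and lower at 3 (12.3%), with a median of -0.13 (0.02 over all genes), and the groups did not overlap for 1 that was above (8.22%) and 2 that were below (11.3%). Artificial CD8 cells were higher at 0 (6.54%) and lower at 4 (8.12%), with a median of -0.35, and did not overlap for 1 above (14.2%) and 4 below (14.8%). By edgeR 1 of the 8, Hmox1, had an unadjusted p under 0.05 in the higher direction, limma-voom called it higher and DESeq2 called none. In iRTE against Artificial CD8 cells, the comparison behind the choice of genes, 2 members were higher (20% of all genes) and 1 lower (18.7%), and every iRTE library lay above every Artificial CD8 library for 2 (11%) and below for 0 (12.6%).

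**Figure D3:**
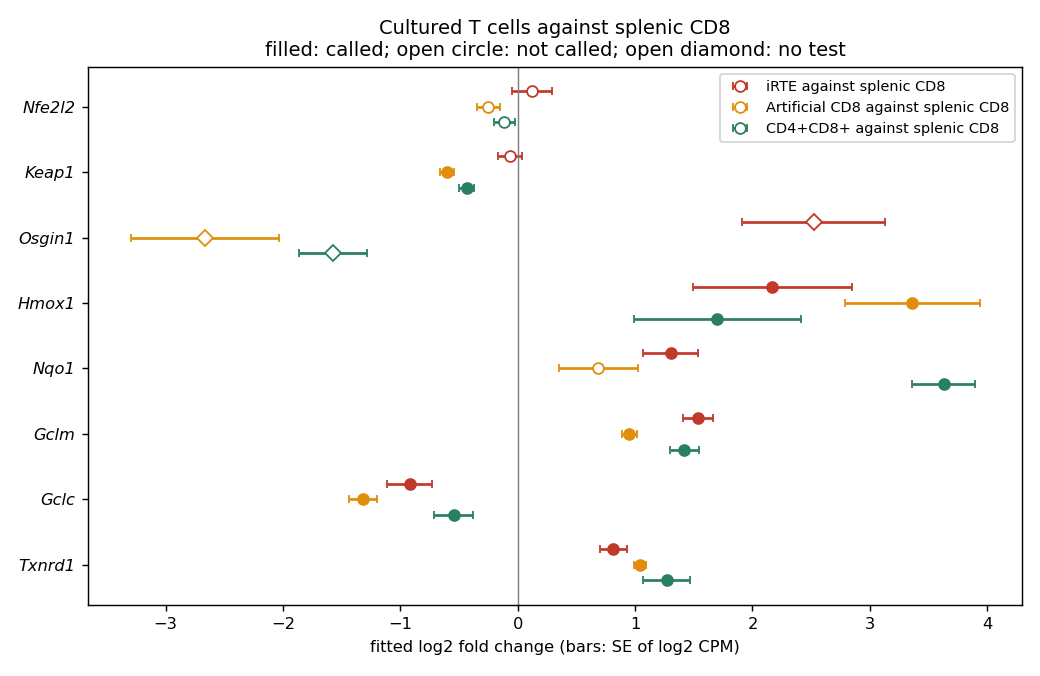
Fitted log2 fold changes of 8 members in iRTE, Artificial CD8 and CD4+CD8+ cells against splenic CD8 cells, with bars of SE of log2 CPM. Filled circles were called, open circles were not, and open diamonds (Osgin1) have no test. Gclm, Txnrd1 and Hmox1 lie right of 0 in all 3 comparisons and Gclc lies left of it, with Nfe2l2 near 0. Srxn1 and Slc7a11 are left out for their low counts.

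Beyond the members, 68 genes of the same network were listed by role, and 63 of them passed the filter. Against splenic CD8 cells 32 were higher and 12 lower in iRTE, 30 and 18 in Artificial CD8, and 35 and 12 in CD4+CD8+ cells. The median change was 0.57, 0.38 and 0.39. Of all 13922 genes, 29.2% were higher and 29% lower in iRTE, 30.3% and 30.2% in Artificial CD8, and 28.9% and 27.4% in CD4+CD8+ cells. The counts of each list below stand beside these same shares. Genes such as Fth1, Ftl1, Prdx1 and the glutathione transferases have pseudogenes or close copies, so their counts are less certain.

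Of 12 thioredoxins, peroxiredoxins and related genes 9 were higher and 1 lower in iRTE, 7 and 2 in Artificial CD8, and 8 and 2 in CD4+CD8+ cells, against splenic CD8 cells. The 1 lower in iRTE became 2 without iRTE 4, and the 2 lower in CD4+CD8+ cells became 1 without CD4+CD8+ 3. Prdx1, a peroxiredoxin that removes hydrogen peroxide, held 846 to 1362 CPM in iRTE, 1002 to 1198 CPM in Artificial CD8, 981 to 1309 CPM in CD4+CD8+ and 290 to 341 CPM in splenic CD8 cells. It rose by 1.80 ± 0.12, 1.81 ± 0.06 and 1.80 ± 0.14 in the 3 cultured groups (edgeR adjusted p = 4.13e-10, 2.39e-10 and 1.74e-09). Prdx2, its relative, rose by 1.58 ± 0.13, 2.10 ± 0.05 and 2.13 ± 0.23 (edgeR adjusted p = 4.01e-08, 6.08e-10 and 3.27e-09).

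In the glutathione list 8 of 15 genes were higher and 3 lower in iRTE, 8 and 4 in Artificial CD8, and 10 and 3 in CD4+CD8+ cells. The 4 lower in Artificial CD8 cells became 2 without Artificial CD8 3. Gsr, the reductase that regenerates glutathione, held 115 to 179 CPM in iRTE, 177 to 215 CPM in Artificial CD8, 134 to 184 CPM in CD4+CD8+ and 37.7 to 47.0 CPM in splenic CD8 cells, a rise of 1.89 ± 0.12, 2.22 ± 0.07 and 2.02 ± 0.16 (edgeR adjusted p = 4.15e-10, 3.67e-11 and 7.5e-10). Gsto1, a glutathione transferase, held 45.6 to 105 CPM in iRTE, 39.5 to 49.3 CPM in Artificial CD8, 43.8 to 61.5 CPM in CD4+CD8+ and 7.31 to 8.87 CPM in splenic CD8 cells. Its rise was 3.44 ± 0.23, 2.47 ± 0.07 and 2.66 ± 0.15 (edgeR adjusted p = 5.58e-11, 1.88e-09 and 4.13e-09).

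NADPH fuels both systems. Of 6 genes of NADPH supply 4 were higher in iRTE, 5 in Artificial CD8 and 6 in CD4+CD8+ cells than in splenic CD8 cells, with none lower. G6pdx, the first enzyme of the pentose phosphate pathway, rose by 0.92 ± 0.07, 0.60 ± 0.04 and 1.02 ± 0.04 (edgeR adjusted p = 2.11e-08, 2.31e-06 and 2.32e-08), and Tkt, its transketolase, by 1.54 ± 0.18, 1.31 ± 0.06 and 1.09 ± 0.14 (edgeR adjusted p = 7.61e-08, 3.22e-07 and 1.57e-05). All 3 genes of superoxide and peroxide removal were higher in each cultured group. Sod2, the mitochondrial superoxide dismutase, held 149 to 269 CPM in iRTE, 106 to 120 CPM in Artificial CD8, 128 to 173 CPM in CD4+CD8+ and 55.1 to 64.6 CPM in splenic CD8 cells. Sod1, the cytosolic one, rose by 1.16 ± 0.19, 0.91 ± 0.08 and 0.83 ± 0.23 (edgeR adjusted p = 1.49e-05, 0.000155 and 0.00134).

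Of 7 haem and iron genes 4 were higher and 0 lower in iRTE, 3 and 2 in Artificial CD8, and 4 and 0 in CD4+CD8+ cells. The 2 lower in Artificial CD8 cells became 1 without splenic CD8 3 or 5 or without Artificial CD8 3 or 4, and the 0 lower in CD4+CD8+ cells became 1 without any single CD4+CD8+ library. The ferritin chains that store iron were among them: Fth1 rose by 0.86 ± 0.05, 0.64 ± 0.05 and 1.23 ± 0.14 (edgeR adjusted p = 1.68e-07, 4.08e-06 and 8.02e-09) and Ftl1 by 0.96 ± 0.14, 0.56 ± 0.08 and 1.17 ± 0.18 (edgeR adjusted p = 3.71e-06, 0.000701 and 1.33e-06). The detoxification list was mixed, with 2 higher and 3 lower of 7 in iRTE, 3 and 4 in Artificial CD8, and 2 and 3 in CD4+CD8+ cells. Ephx1, an epoxide hydrolase, held 2.94 to 23.8 CPM in iRTE, 16.3 to 21.0 CPM in Artificial CD8, 12.9 to 18.3 CPM in CD4+CD8+ and 91.9 to 102 CPM in splenic CD8 cells, while the aldehyde reductase Akr1a1 rose by 1.30 ± 0.10, 1.05 ± 0.06 and 1.17 ± 0.14 (edgeR adjusted p = 9.1e-09, 8.1e-08 and 1.47e-07).

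Of 13 regulators of Nrf2, 2 were higher and 5 lower in iRTE, 1 and 6 in Artificial CD8, and 2 and 4 in CD4+CD8+ cells. In these groups 29.2%, 30.3% and 28.9% of all genes were higher, and 29%, 30.2% and 27.4% were lower. Bach2, a factor that competes at Maf recognition elements and keeps T cells naive, held 53.2 to 90.6 CPM in iRTE, 15.9 to 25.3 CPM in Artificial CD8, 17.6 to 26.7 CPM in CD4+CD8+ and 136 to 165 CPM in splenic CD8 cells. It fell by 1.11 ± 0.17, 2.86 ± 0.13 and 2.73 ± 0.19 on the log2 scale (edgeR adjusted p = 1.62e-05, 1.55e-10 and 8.02e-09). Sqstm1, the autophagy receptor p62 that can sequester Keap1, rose by 0.57 ± 0.06 in iRTE (edgeR adjusted p = 7.27e-06) and by 0.36 ± 0.06 in CD4+CD8+ cells (edgeR adjusted p = 0.00287). In Artificial CD8 cells Sqstm1 changed by 0.02 ± 0.04 (edgeR adjusted p = 0.811). Syvn1, an endoplasmic reticulum ubiquitin ligase of Nrf2, was lower in all 3 cultured groups. It changed by -0.43 ± 0.18 in iRTE, -0.78 ± 0.06 in Artificial CD8 and -0.99 ± 0.05 in CD4+CD8+ cells (edgeR adjusted p = 0.0166, 0.000127 and 9.6e-05). The count of lower regulators was 3 in iRTE 4 and 5 alone. In Artificial CD8 cells it was 3 to 5 when any single library was left out, and 3 without splenic CD8 1 or 5 or without Artificial CD8 2.

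**Figure D4:**
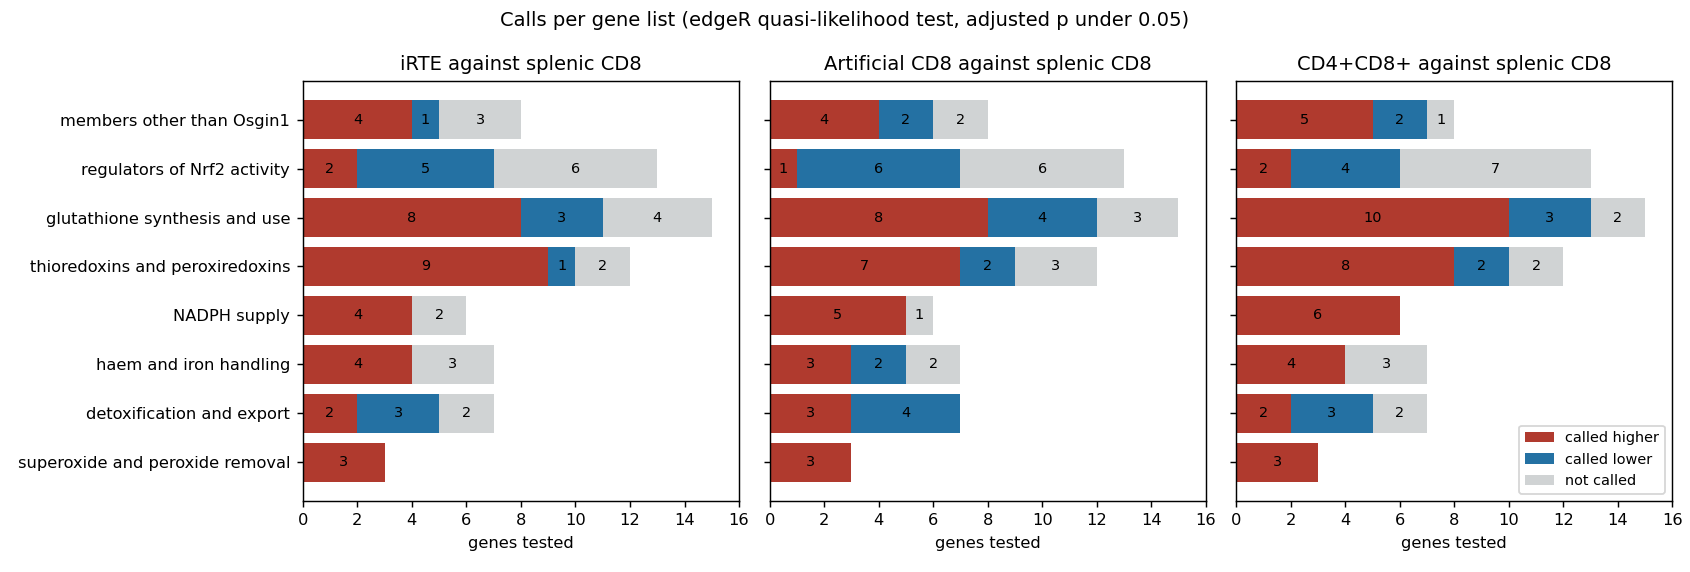
Stacked bars count the genes of each list called higher, called lower or not called in iRTE, Artificial CD8 and CD4+CD8+ cells against splenic CD8 cells, by edgeR at an adjusted p under 0.05. The x axis is the number of genes tested, and the top bar holds the 8 members without Osgin1 and Srxn1. The thioredoxin list has 9 of 12 genes higher in iRTE, and the regulator list has 5, 6 and 4 of 13 genes lower in the 3 panels. In the same panels 29.2%, 30.3% and 28.9% of all genes were higher, and 29%, 30.2% and 27.4% were lower.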

How the data were processed

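RNA of 18 sorted mouse samples was measured by sequencing, and groups came from the sample titles. The authors deposited raw read counts per gene for each library, made with STAR 2.4.2 and Subread on build mm9, per the submitters' processing notes. Which annotation and strand option the counting used is not given in the sources used here. The authors also deposited a table of log2 CPM for 17765 genes, which equals TMM log2 CPM with a prior count of 2 to within 5.33e-14 and was used only for that check.

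Counts were analysed with edgeR 4.0.16 (R 4.3.3): filterByExpr, TMM, 1 coefficient for each group over all 18 libraries, the robust quasi-likelihood test and Benjamini-Hochberg adjustment over 13922 genes at 0.05. Standard errors were computed from the spread of log2 CPM (prior count 2) inside each group, not from the fit. Alternatives were RLE scaling, DESeq2 1.42.0, limma-voom 3.58.1, no filter, a filter of 5 CPM in 3 libraries, only the groups compared, subsets of iRTE, a replicate block and leaving out each library. The tests were checked on simulated data. Exact intervals of count ratios were computed in scipy 1.17.1, and the Gclm to Gclc ratio was chosen after seeing the data. No replicate pair agreed within counting noise (lowest chi-square per degree of freedom 4.66).

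The members and the lists of related genes were chosen with earlier results of these data known. Named from each list were the 2 called genes with the smallest adjusted p in iRTE and the 2 in Artificial CD8 against splenic CD8 cells, and the 5 genes with the highest correlation to Osgin1. Promoter windows came from RefSeq, build GRCm38.p6, matched by symbol, since no mm9 genome was used here.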

Additional observations from a re-analysis of the deposited data

Results flagged for a closer look

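In 26 groups of 5 libraries, 5 held a library far from the others for its group's range, where chance gives about 1 in 20. Osgin1 was 4.30 CPM in iRTE 4, against 31.1 to 41.0 CPM in the other iRTE libraries. Osgin1 was 3.68 CPM in splenic CD8 2, against 5.25 to 5.52 CPM in the other splenic libraries. Hmox1 was 12.2 CPM in iRTE 5, where the other iRTE libraries held 2.30 to 4.80 CPM. Hmox1 was 3.56 CPM in splenic CD8 4, where the other splenic libraries held 0.281 to 0.779 CPM. Srxn1 was 0.619 CPM in Artificial CD8 5 and 0 in the other Artificial CD8 libraries. A single value above 0 among zeros is always flagged, so the chance share does not apply to Srxn1.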

How the results depend on the processing

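Counts here leave out Osgin1, so 8 members were tested. Of 652 alternative values of single members, without the comparison of iRTE with Artificial CD8 cells, 605 kept their direction and call, 7 became called, 33 lost the call and 7 turned sign. In iRTE against Artificial CD8 cells, where nothing is read from the counts, 1 member was lower, which became 2 with limma-voom or iRTE 1 to 3 alone and 0 with the 5 CPM filter or these groups alone. In iRTE against CD4+CD8+ cells 1 was higher, which became 0 with no filter, with the replicate block or with these groups alone and 2 with iRTE 1 to 3 alone, and 3 were lower, which became 1 with the 5 CPM filter. In Artificial CD8 against CD4+CD8+ cells 0 were higher, which became 1 with limma-voom or these groups alone, and 4 were lower, which became 2 with the 5 CPM filter. In CD4+CD8+ against splenic CD8 cells 5 were higher, which became 3 with the 5 CPM filter, which tests fewer genes, and 2 were lower, which became 1 with the replicate block. Leaving out single libraries gave 2 to 3 higher and 1 to 2 lower (iRTE against Artificial CD8), 4 and 1 (iRTE against splenic CD8), 0 to 1 and 2 to 4 (iRTE against CD4+CD8+), 4 and 2 (Artificial CD8 against splenic CD8), 0 and 2 to 4 (Artificial CD8 against CD4+CD8+), and 4 to 5 and 1 to 2 (CD4+CD8+ against splenic CD8). With iRTE 4 and 5 alone Nfe2l2 turned to -0.041, -0.28 and -0.17 against Artificial CD8, splenic CD8 and CD4+CD8+ cells, and Gclc to 0.027 against CD4+CD8+ cells. Hmox1 in iRTE against CD4+CD8+ cells, 0.47 with all libraries, turned to -0.091 with the replicate block and -0.10 with iRTE 1 to 3 alone, and ranged from -0.14 to 1.10 without single libraries. Slc7a11 in iRTE against splenic CD8 cells turned to 0.12 with iRTE 1 to 3 alone, at no more than 1 count per library. The cause was not tested. Same-numbered libraries of different groups had correlations of -0.066 to 0.059 in their deviations from group means (24 pairs), and those with different numbers -0.124 to 0.123 (96 pairs). Over all genes no pairing by number was thus seen. A small shared effect, or one confined to few genes, would not show in these values. With the replicate block, Keap1 and Txnrd1 in iRTE against CD4+CD8+ cells and Gclc in CD4+CD8+ against splenic CD8 cells were no longer called (edgeR adjusted p = 0.0557, 0.0544 and 0.0682). Depth limits Srxn1, Slc7a11 outside CD4+CD8+ cells and Nqo1 outside them, which rest on 34 counts or fewer per library except for Slc7a11 in Artificial CD8 4 (48). It also limits Hmox1 in splenic CD8 cells (4 to 59 counts), the baseline of its rises. Osgin1 is limited likewise in Artificial CD8 (0 to 25 counts) and CD4+CD8+ cells (14 to 27 counts).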
